A study of Homo sapiens with 8 samples.

Results

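The genes described here are 9 chloride cotransporters and chloride channels, chosen by name with earlier results of these data known: SLC12A1, SLC12A2, SLC12A4, SLC12A5, SLC12A7, CLCN2, CLCN5, CLCN6 and ANO1. They stand among 58217 genes with matched transcripts, and all 9 were among the 18201 genes with enough counts to be tested. The cells were oligodendrocyte progenitor cells (OPCs) differentiated without overexpression of SOX10 from the human embryonic stem cell line H9, an established line. They were kept for 2 days in OPC medium on 1 of 3 coatings: Matrigel, the basement membrane extract that served as control (2 libraries, replicates 2 and 3), recombinant vitronectin (VN, 3 libraries), or VNP2, a designed peptide derived from vitronectin and fused to a mussel adhesive protein (VNP2, 3 libraries). All libraries come from this single line, polyadenylated RNA was sequenced, and no label says that the replicates were separate cultures, so that the p-values measure the spread between these libraries, which may be technical.

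Chloride moves across membranes through cotransporters, which couple it to the sodium and potassium gradients, and through channels, which let it flow down its own gradient. NKCC1 (SLC12A2) and NKCC2 (SLC12A1) bring chloride into the cell together with sodium and potassium, whereas the KCC proteins, among them those of SLC12A4, SLC12A5 and SLC12A7, carry it out with potassium, and the balance of the inward and outward carriers sets whether GABA depolarizes or hyperpolarizes a neural cell. Cells of the oligodendrocyte lineage are known for high internal chloride and depolarizing GABA responses. The CLC proteins are plasma membrane channels or endosomal exchangers, and ANO1 is a channel opened by calcium.

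The 8 libraries held between 37997896 and 39429453 estimated counts. Among the libraries on VN, replicate 1 stood apart, with a median chi-square per gene of 2.03 and 1.98 against the other libraries on VN, where the other replicate pairs had 1.17 to 1.24 and sampling alone gives 0.455. Without that library, the numbers of chloride genes called below did not change in any of the comparisons. Of the 8 markers of oligodendrocyte progenitors, OLIG2 had 1643 to 2111 normalized read-counts in every library, while SOX10 was at 0 in both Matrigel libraries and at 1.95 to 4.89 on the other coatings. The summed level of these 8 markers was 17780 to 18040 on Matrigel, 22410 to 23740 on VN and 25480 to 27900 on VNP2, so that the marker level itself moved with the coating. Most of this sum was PTPRZ1 (means of 13160, 17300 and 20700 in the order Matrigel, VN, VNP2), and on VNP2 over Matrigel 6 of the 7 tested markers were higher and 0 lower. Of all tested genes, 7.44% were called higher and 9.13% lower in that comparison. The mean of PTPRZ1 over all libraries was 0.787 times that of the authors' own normalized counts. The summed level of 8 neuron markers was 39210 to 40820, 44540 to 47520 and 49410 to 50790 in the same order, with 6 of 8 higher on VNP2 over Matrigel, although the mature neuron marker RBFOX3 had a mean of 14.3. That of 8 mesenchymal markers was 49270 to 51150, 45930 to 48660 and 39610 to 40570, a fall carried by COL1A1 (means of 24750, 17050 and 9342), while 5 of the 8 were higher on VNP2 than on Matrigel (COL1A2, COL3A1, DCN, LUM and TWIST1) and 2 were lower (COL1A1 and PRRX1). The part that these shifts had in the results below was not tested, and in RNA from whole cultures fewer cells of a type and less RNA per cell cannot be told apart.

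Across the 3 coatings, 5 of the 9 genes passed an adjusted p under 0.05 (SLC12A1, SLC12A2, SLC12A4, CLCN5 and ANO1), where 19.3% of all tested genes did. VN differed from Matrigel in 3 genes, against 15.3% of all genes: SLC12A2 and CLCN5 were higher (5.66% of all genes) and SLC12A4 was lower (9.6%). VNP2 differed from Matrigel in 5 genes, against 16.6%: SLC12A1, ANO1, SLC12A2 and CLCN5 were higher (7.44%) and SLC12A4 was lower (9.13%). VNP2 differed from VN in SLC12A1, ANO1 and SLC12A4, against 5.1%, and all 3 were higher on VNP2 (3.09% of all genes were called higher and 2.01% lower). The comparisons with Matrigel share the same Matrigel libraries and are therefore not independent of each other. Chloride transport was among the themes that the study drew from these same libraries, and the genes were chosen with earlier results known. The number of called genes and their direction are for that reason not independent evidence. The median log2 fold change of the 9 genes was 0.05 on VN, 0.22 on VNP2 and 0.07 for VNP2 over VN, and the median of all tested genes was 0.0044, 0.0024 and 0.0007. The groups of libraries did not overlap in 4 genes for VN against Matrigel (44.4% of all genes), in 6 for VNP2 against Matrigel (48.1%) and in 5 for VNP2 against VN (23.6%). Without Matrigel replicate 3 the calls fell from 5 to 3 across the coatings and from 3 to 1 for VN against Matrigel.

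**Figure D1:**
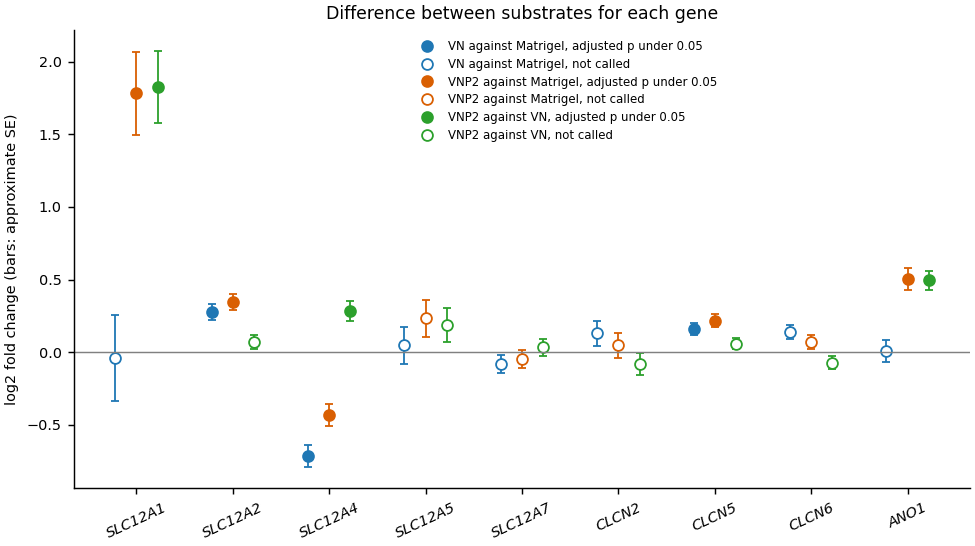
The log2 fold change of each gene (vertical axis) for VN against Matrigel (blue), VNP2 against Matrigel (orange) and VNP2 against VN (green), with an approximate standard error as bars and filled symbols for an adjusted p under 0.05. SLC12A1 and ANO1 lay near 0 on VN and at 1.78 and 0.50 on VNP2, and SLC12A4 was the only gene below 0 with a filled symbol.

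SLC12A2 encodes NKCC1, the widely expressed inward cotransporter (chromosome 5, 128083766 to 128189688, plus strand, GRCh38). Its normalized read-counts were 2508 and 2356 on Matrigel, 2868, 2957 and 3022 on VN, then 3281, 2937 and 3078 on VNP2. Both Matrigel libraries lay below all 6 others, and the libraries on VN and VNP2 overlapped. On VN the fitted level was 1.21 times that on Matrigel (log2 fold change 0.28 ± 0.06 (SE), adjusted p = 0.00753), and on VNP2 the log2 fold change was 0.35 ± 0.06 (adjusted p = 0.00156), whereas VNP2 over VN gave 0.07 ± 0.05 (adjusted p = 0.464). Without Matrigel replicate 3 the difference on VN was no longer called (adjusted p = 0.0875).

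Most SLC12A2 reads were assigned to the full transcript SLC12A2-201, with 2116 to 2864 estimated counts per library. The second coding transcript, SLC12A2-202, had 86.5 to 356 estimated counts and lacks a coding exon of 48 bases, exon 21 of 27 in SLC12A2-201 (chr5:128177105-128177152, plus strand). SLC12A2-202 has 5509 bases and SLC12A2-201 has 6874, so that they differ in more than this exon. This alternative exon is shown because it is what separates both forms in the coding part, and it is printed here 5′ to 3′ from GENCODE v29 (GRCh38) with no capitals.
SLC12A2 exon left out of SLC12A2-202: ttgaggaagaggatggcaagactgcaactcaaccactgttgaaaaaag
The counts of SLC12A2-202 were 222 and 115 on Matrigel, 155, 86.5 and 210 on VN, then 356, 261 and 209 on VNP2. These ranges overlapped between Matrigel and each of the other coatings.

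SLC12A1 encodes NKCC2, the inward cotransporter best known from the thick ascending limb of the kidney (chromosome 15, 48178438 to 48304078, plus strand). It had 60.7 and 81.8 normalized read-counts on Matrigel, 60.1, 61.0 and 86.05 on VN, then 199, 196 and 345 on VNP2. All libraries on VNP2 were above every other library, and Matrigel and VN overlapped. The fitted level on VNP2 was 3.44 times that on Matrigel (log2 fold change 1.78 ± 0.29, adjusted p = 0.00175) and 3.54 times that on VN (1.82 ± 0.25, adjusted p = 0.00194), and VN against Matrigel gave -0.04 ± 0.30 (adjusted p = 0.946). VNP2 replicate 3 was the highest after correction for transcript length, although its estimated counts (239) were close to those of the other replicates on VNP2 (212 and 203), and 7.54 of these counts were assigned to a transcript of 509 bases, SLC12A1-208, that was at 0 in every other library. Without the length correction the log2 fold change on VNP2 was 1.497 over Matrigel and 1.572 over VN, and without VNP2 replicate 3 it was 1.48 and 1.52, with the adjusted p under 0.05 in each case.

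The level of SLC12A1 was low per transcript length, at 0.552 to 0.842 TPM on Matrigel and VN and 1.88 to 3.31 TPM on VNP2. Of the 10 kidney tubule markers, UMOD had 0 estimated counts over all 8 libraries, and KCNJ1, CLDN16 and PAX2 had 5, 3 and 5. On VNP2 over VN, however, 2 of the 5 tested markers were higher, PAX8 (log2 fold change 2.02 ± 0.42, adjusted p = 0.0196) and CUBN (0.78 ± 0.14, adjusted p = 0.0083), and LRP2 was lower (-0.31 ± 0.05, adjusted p = 0.0032). Of all tested genes, 3.09% were called higher and 2.01% lower in that comparison. PAX8, a transcription factor of kidney and neural tissue, had 50.9 and 36.8 normalized read-counts on Matrigel, 17.5, 16.6 and 7.07 on VN, then 44.5, 85.6 and 35.1 on VNP2, and CUBN, an endocytic receptor, 643 and 866, then 632, 475 and 660, and 1046, 916.5 and 1058. Over Matrigel neither passed on VNP2 (adjusted p = 0.708 for PAX8 and 0.0901 for CUBN), whereas PAX8 was lower on VN than on Matrigel (log2 fold change -1.705 ± 0.48, adjusted p = 0.0382). The part of these markers in the level of SLC12A1 was not tested. The summed level of all 10 markers was 13430 to 13520 on Matrigel, 11260 to 12640 on VN and 9921 to 10760 on VNP2, and most of that sum was LRP2, which neural progenitors also express. In exon positions, 3.01% of SLC12A1 is shared with CTXN2 on the same strand.

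NKCC2 is made with 1 of several alternative exons that form part of a membrane-spanning segment and are known to change the affinity for chloride. In GENCODE v29 the transcripts SLC12A1-213 and SLC12A1-203 carry the distal one of these exons (chr15:48227079-48227174), and SLC12A1-201, SLC12A1-202 and SLC12A1-207 are among those that carry the middle exon (chr15:48226476-48226571), both of 96 coding bases on the plus strand. They are shown because nearly all counts of the transcripts with either exon were on those with the distal one, and the capitals mark the 40 positions at which both differ, which leaves 58.3% of the positions identical.
SLC12A1 middle exon: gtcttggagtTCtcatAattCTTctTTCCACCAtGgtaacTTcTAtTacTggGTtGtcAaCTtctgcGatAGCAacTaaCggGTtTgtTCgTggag
SLC12A1 distal exon: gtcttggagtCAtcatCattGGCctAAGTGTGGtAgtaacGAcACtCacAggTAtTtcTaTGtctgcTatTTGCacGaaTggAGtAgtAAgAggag
The transcripts with the distal exon, SLC12A1-213 and SLC12A1-203 together, had 36.95 and 62.8 estimated counts on Matrigel, 46.8, 43.95 and 57.3 on VN, then 134, 149 and 137 on VNP2. Those with the middle exon had 0 and 1.23, then 0, 1.03 and 4.57, and 5.16, 1.11 and 12.1 in the same order of libraries, all of them on SLC12A1-201 and, in VNP2 replicate 3 alone, SLC12A1-207 (10.8 counts), with SLC12A1-202 at 0 throughout. The retained-intron transcript SLC12A1-209 had 28.9 and 14.0 counts on Matrigel, 18.2, 18.7 and 21.3 on VN, then 46.8, 39.65 and 63.45 on VNP2. The sum of the transcripts with the distal exon and this retained-intron transcript were thus both higher in every library on VNP2 than in any other. Reads moved between SLC12A1-213 and SLC12A1-203 from library to library (0 counts for SLC12A1-203 in 6 libraries, 51.4 in Matrigel replicate 3 and 139.5 in VNP2 replicate 2), and the pair is therefore given as a sum. Each exon holds only 96 bases, whereas SLC12A1-213 and SLC12A1-203 have 4710 and 4708. Few of the reads can therefore lie on either exon, and the split between the middle and the distal exon is uncertain.

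**Figure D2:**
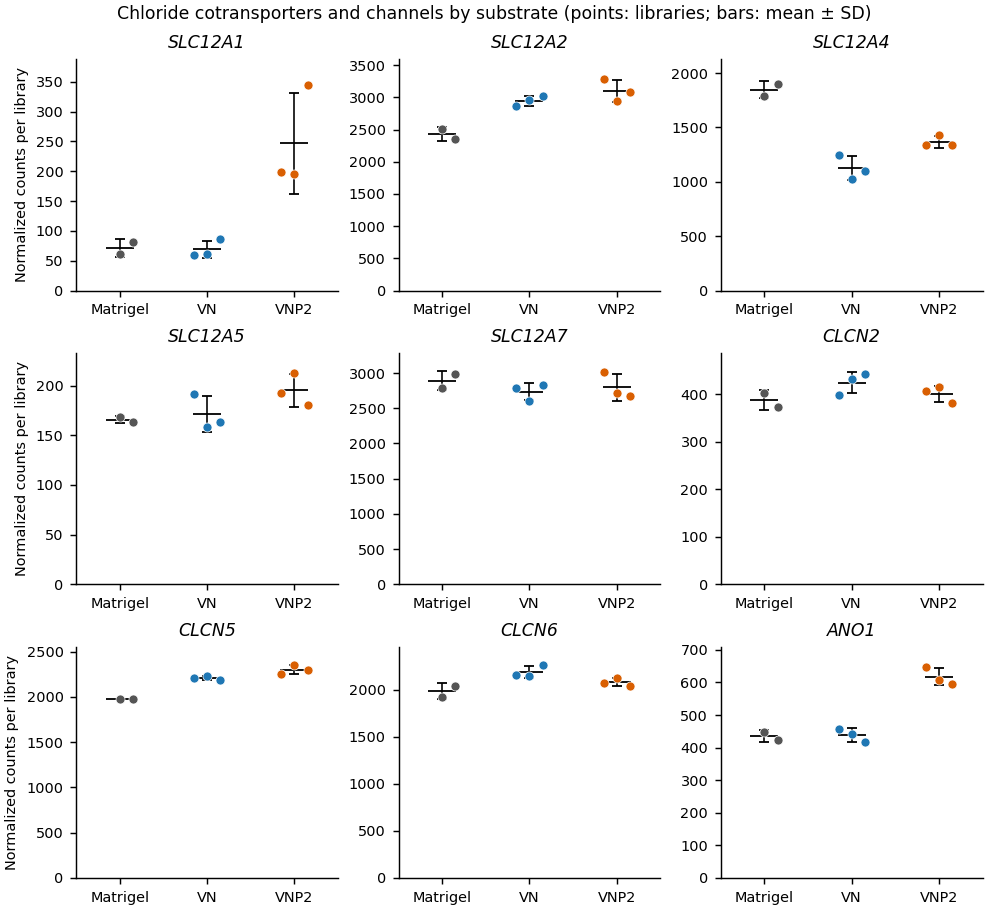
Normalized read-counts (vertical axes, starting at 0) of the 9 genes in each library on Matrigel, VN and VNP2, with the mean and SD of each coating as bars. SLC12A1 and ANO1 were higher in every library on VNP2 than in any other, SLC12A2 and CLCN5 were lowest in both Matrigel libraries, and SLC12A4 was highest in both.

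SLC12A4 encodes KCC1, the outward cotransporter found in most cells and active in volume regulation (chromosome 16, 67943474 to 67969601, minus strand). Its normalized read-counts were 1791 and 1903 on Matrigel, 1247, 1029 and 1103 on VN, then 1336, 1434 and 1341 on VNP2. The 3 groups did not overlap, with Matrigel highest and VN lowest. The fitted level on VN was 0.610 times that on Matrigel (log2 fold change -0.71 ± 0.08, adjusted p = 0.00016) and that on VNP2 0.742 times (-0.43 ± 0.08, adjusted p = 0.00313). VNP2 over VN was 0.28 ± 0.07 and only just passed (adjusted p = 0.047). That last call was lost without any of the libraries other than VN replicate 1 (adjusted p 0.0705 to 0.146), and without the length correction (log2 fold change 0.15, adjusted p = 0.302).

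The counts of SLC12A4 were divided mainly between SLC12A4-209 and SLC12A4-201. SLC12A4-209 had 902 and 818 estimated counts on Matrigel, 404, 406 and 394 on VN, then 490, 548 and 490 on VNP2, and SLC12A4-201 had 782 and 867, then 621, 521.5 and 579, and 556.5, 572 and 542. Both transcripts were higher in each Matrigel library than in any other library. One difference between them is a coding exon of 95 bases, exon 2 of 24 in SLC12A4-201 (chr16:67963465-67963559, minus strand), which SLC12A4-209 lacks. SLC12A4-201 has 4708 bases and SLC12A4-209 has 3620, so that the exon is a small part of what separates them. Their estimated counts therefore do not measure the use of this exon alone. It is shown, without capitals, because it marks the longer form and lies near the start of the coding part.
SLC12A4 exon left out of SLC12A4-209: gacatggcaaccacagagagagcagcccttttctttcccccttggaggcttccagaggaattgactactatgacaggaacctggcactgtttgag
A further transcript, SLC12A4-204, ranged from 0 to 222.5 counts over the 8 libraries. Transcripts of nearly the same sequence cannot be separated with certainty by such estimates. In exon positions, 4.05% of SLC12A4 is shared with LCAT on the same strand.

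SLC12A7 encodes KCC4, a further outward cotransporter (chromosome 5, 1050376 to 1112035, minus strand). It had 2793 and 2984 normalized read-counts on Matrigel, 2781, 2603 and 2827 on VN, then 3020, 2712 and 2668 on VNP2. All 3 groups overlapped, and the log2 fold changes were -0.08 ± 0.06 on VN and -0.04 ± 0.06 on VNP2 (adjusted p = 0.449 and 0.697).

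SLC12A5 encodes KCC2, the outward cotransporter of mature neurons (chromosome 20, 46021690 to 46060152, plus strand). It had 168 and 163 normalized read-counts on Matrigel, 192, 159 and 163 on VN, then 193, 213 and 180 on VNP2. The libraries on VNP2 were above both on Matrigel but overlapped with VN, and no comparison passed (VNP2 against Matrigel, log2 fold change 0.23 ± 0.13, adjusted p = 0.269). Of the reads, 35.6 to 54.5 estimated counts per library were assigned to SLC12A5-219, a transcript of 401 bases, and 61.2 to 111 to the full transcript SLC12A5-201 of 6061 bases. Because TPM is taken per length, SLC12A5-219 made up 64.0 to 77.5% of the TPM of the gene, and SLC12A5-201 had only 0.44 to 0.81 TPM. The full transcript had 61.2 and 62.2 counts on Matrigel, 111, 89.8 and 88.3 on VN, then 90.8, 68.5 and 104 on VNP2, with both Matrigel libraries below all others. The other full transcript, SLC12A5-211, was at 0 in all 8 libraries.

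**Figure D3:**
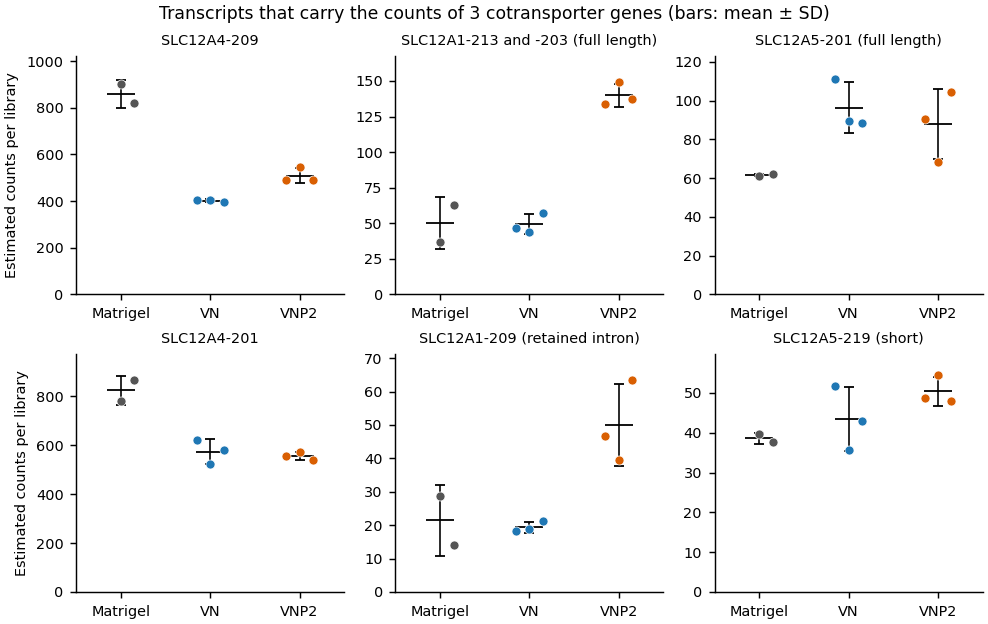
Estimated counts per library (vertical axes, starting at 0) of the transcripts that held most counts of SLC12A4, SLC12A1 and SLC12A5, with mean and SD as bars. Both SLC12A4 transcripts were highest on Matrigel, and the full-length and the retained-intron transcripts of SLC12A1 were both highest on VNP2.

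The ratio of SLC12A2 to SLC12A5 sets the main inward carrier against the neuronal outward carrier. On the TPM of whole genes it was 1.95 and 1.89 on Matrigel, 1.96, 2.44 and 2.42 on VN, then 2.23, 1.81 and 2.24 on VNP2. The coatings overlapped and did not differ beyond the spread of their libraries (exact permutation test over 560 assignments of the libraries, one-sided, p = 0.329, where the smallest possible value is 0.00357). Restricted to the full-length transcripts, a choice made after the data were seen, the ratio was 46.5 and 46.7 on Matrigel, 28.8, 37.9 and 37.3 on VN, then 43.8, 51.8 and 36.8 on VNP2. Here the mean was lowest on VN (34.7) and not on Matrigel (exact permutation test, p = 0.146).

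**Figure D4:**
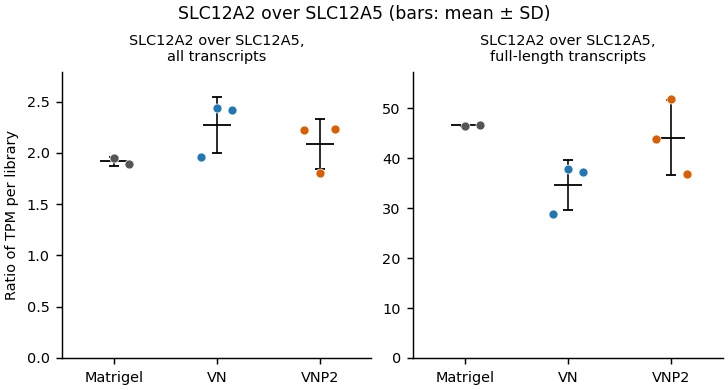
Ratio of TPM (vertical axes, starting at 0) of SLC12A2 to SLC12A5 over all transcripts (left) and over full-length transcripts (right), for each library with mean and SD. The Matrigel libraries lay within the range of the others in both.

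CLCN5 encodes ClC-5, an exchanger of chloride and protons in endosomes (chromosome X, 49922615 to 50099235, plus strand). It had 1980 and 1974 normalized read-counts on Matrigel, 2206, 2235 and 2189 on VN, then 2249, 2347 and 2299 on VNP2. The 3 groups did not overlap, and the differences were small, at 1.12 times Matrigel on VN (log2 fold change 0.16 ± 0.04, adjusted p = 0.0293) and 1.16 times on VNP2 (0.22 ± 0.04, adjusted p = 0.00563), with 0.06 ± 0.04 between VNP2 and VN (adjusted p = 0.452). On VN the call was lost without Matrigel replicate 2 or 3 (adjusted p = 0.131 and 0.149), without VN replicate 2 or 3 (0.0739 and 0.0574), without the length correction (0.108), without a filter on low counts (0.0637) and with only the libraries of that pair in the fit (0.0712). On VNP2 it was lost without Matrigel replicate 3 (0.0518) and without the length correction (0.0575).

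CLCN6 encodes ClC-6, an exchanger of late endosomes in neural cells (chromosome 1, 11806096 to 11848079, plus strand). Its 1925 and 2043 normalized read-counts on Matrigel lay below 2159, 2144 and 2258 on VN and overlapped with 2071, 2128 and 2043 on VNP2. No comparison passed, and the largest difference was that of VN against Matrigel (log2 fold change 0.14 ± 0.05, adjusted p = 0.0812).

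CLCN2 encodes ClC-2, a channel of the plasma membrane that opens on hyperpolarization and whose loss is known to cause white matter disease (chromosome 3, 184346185 to 184361651, minus strand). It had 403 and 373.5 normalized read-counts on Matrigel, 399, 432 and 442 on VN, then 407, 414 and 381 on VNP2. The groups overlapped, and the log2 fold changes were 0.13 ± 0.08 on VN and 0.05 ± 0.08 on VNP2 (adjusted p = 0.342 and 0.774). In exon positions, 24.7% of CLCN2 is shared with FAM131A on the opposite strand. The libraries were made with a stranded kit, but the strand setting of the counting is not given in the sources used here.

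ANO1 encodes the calcium-activated chloride channel also called TMEM16A (chromosome 11, 70078302 to 70189528, plus strand). It had 449.5 and 422 normalized read-counts on Matrigel, 457, 441 and 416 on VN, then 646, 609 and 597 on VNP2. The 3 libraries on VNP2 were above all others, and Matrigel and VN overlapped. VNP2 was 1.42 times Matrigel (log2 fold change 0.50 ± 0.08, adjusted p = 0.00128) and 1.41 times VN (0.49 ± 0.07, adjusted p = 0.00204), and VN against Matrigel was 0.01 ± 0.08 (adjusted p = 0.955). The call on VNP2 was kept against both coatings when any library was left out. The main transcript, ANO1-202, had 2.40 and 2.63 TPM on Matrigel, 2.54, 2.43 and 2.56 on VN, then 4.03, 3.44 and 4.01 on VNP2, with the same libraries on top. In exon positions, 10.7% of ANO1 is shared with the antisense gene ANO1-AS1.

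Per transcript length and over all 8 libraries, SLC12A2 had the highest mean level (29.1 TPM, range 23.0 to 33.3), followed by SLC12A7 (25.7, range 24.6 to 27.9) and CLCN6 (20.6, range 18.1 to 22.8). SLC12A4 (17.6, range 13.4 to 23.2), SLC12A5 (13.8, range 12.2 to 16.6, mostly from its short transcript) and CLCN5 (12.6, range 10.9 to 13.6) followed, and CLCN2 (6.59, range 5.83 to 7.36), ANO1 (5.76, range 4.64 to 7.399) and SLC12A1 (1.30, range 0.552 to 3.31) were lowest. Neighbours in this order overlapped over the libraries, except SLC12A7 and CLCN6, CLCN5 and CLCN2, and ANO1 and SLC12A1. On Matrigel the first pair stood in the other order, with SLC12A7 (24.6 and 26.45 TPM) above SLC12A2 (24.3 and 23.0 TPM) in both libraries, and in all libraries on VN and VNP2 SLC12A2 was above SLC12A7. On Matrigel SLC12A4 (21.7 and 23.2 TPM) was close to SLC12A2 (24.3 and 23.0 TPM), whereas on VN SLC12A4 (13.4 to 15.8 TPM) lay below SLC12A2 (28.99 to 31.5 TPM).

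**Figure D5:**
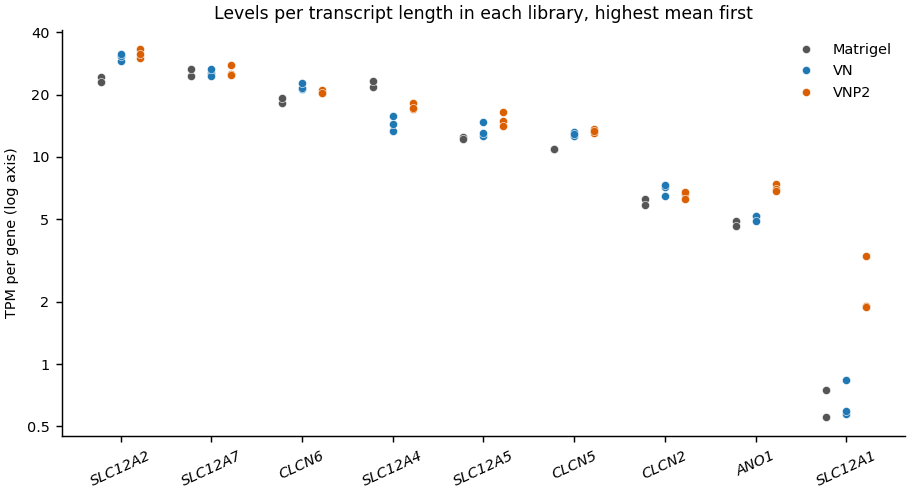
TPM of the 9 genes in each library (vertical log axis), ordered by the mean over all libraries, for Matrigel (grey), VN (blue) and VNP2 (orange). SLC12A2 and SLC12A4 lay at a similar level on Matrigel and apart on VN and VNP2, and SLC12A1 was the lowest gene on every coating.

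The share of the TPM held by the main transcript of each gene was a readout that the choice of genes did not use. It differed between the coatings in 0 of 9 genes after Benjamini-Hochberg adjustment of the exact permutation test, and in 1 gene before it. That gene was SLC12A4, in which SLC12A4-209 held 46.8 and 39.5% of the TPM on Matrigel, 28.97, 36.8 and 34.1% on VN, then 32.7, 35.7 and 32.3% on VNP2 (exact permutation test, one-sided, p = 0.0429, adjusted p = 0.386). Both Matrigel libraries were above the others. With estimated counts in place of TPM the share was 50% and 41.5%, then 30.5, 37.7 and 36.2%, and 35.3, 44.0 and 37.6%, which overlapped, and 0 genes passed before or after adjustment.

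For comparison with the lists that follow, edgeR called 15.3% of all tested genes on VN and 16.6% on VNP2. For VNP2 over VN it called 5.1%. Of the other cation-chloride cotransporter genes, SLC12A8 and SLC12A9 were tested, and 0 were called by edgeR or by DESeq2 in any comparison, with 1 on VN, 2 on VNP2 and 1 for VNP2 over VN at an unadjusted p under 0.05. Of the 5 other tested CLC genes and subunits, 0 were called by edgeR in any comparison, with 2 on VN, 1 on VNP2 and 0 for VNP2 over VN at an unadjusted p under 0.05, and DESeq2 called 1, 1 and 0. Of 7 other tested anoctamins, the scramblase gene ANO6 (log2 fold change -0.18 ± 0.04, adjusted p = 0.0117) and ANO10 (-0.31 ± 0.06, adjusted p = 0.0064) were lower on VNP2, and ANO6 was also lower on VN (-0.14 ± 0.04, adjusted p = 0.0359). Of 6 tested volume- and acid-activated channel genes, LRRC8A, the essential subunit of the volume-regulated anion channel, was lower on VN (-0.26 ± 0.04, adjusted p = 0.00176) and on VNP2 (-0.21 ± 0.04, adjusted p = 0.00463).

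Of the 5 tested bestrophin, CFTR, CLCA and tweety genes, TTYH1, a tweety protein of neural cells, was higher in every comparison, with 3714 and 3856 normalized read-counts on Matrigel, 4752, 4482 and 4285 on VN, then 5390, 5096 and 5359 on VNP2. The groups did not overlap, and the log2 fold change was 0.25 ± 0.05 on VN (adjusted p = 0.00767), 0.48 ± 0.05 on VNP2 (9.0e-05) and 0.23 ± 0.04 for VNP2 over VN (0.0136). TTYH3 was lower on VN (-0.12 ± 0.03, adjusted p = 0.0357), and BEST1, at a low mean of 31.0 and named after its values were seen, was lower on VNP2 than on VN (-1.19 ± 0.30, adjusted p = 0.0496). For VNP2 over VN, DESeq2 called 1 gene of this list, where edgeR called 2.

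Of 5 tested CLIC genes, 1 was lower on VN, 1 was higher and 2 lower on VNP2, and 1 was higher and 1 lower on VNP2 over VN. On VNP2 over Matrigel, DESeq2 called 2 CLIC genes, where edgeR called 3. CLIC1 was lower on VN (-0.31 ± 0.03, adjusted p = 0.000149) and VNP2 (-0.13 ± 0.03, adjusted p = 0.0222) and higher on VNP2 than on VN (0.18 ± 0.03, adjusted p = 0.0057), and CLIC2 was higher on VNP2 (0.88 ± 0.25, adjusted p = 0.0348). CLIC5, at a low mean of 35.1 and named after its values were seen, had 54.99 and 78.3 normalized read-counts on Matrigel, 56.6, 29.5 and 34.6 on VN, then 11.2, 7.51 and 8.39 on VNP2. Its 3 libraries on VNP2 were below all others (log2 fold change -2.87 ± 0.35 over Matrigel, adjusted p = 0.000303, and -2.14 ± 0.34 over VN, adjusted p = 0.00511). Of 13 tested subunits of the GABA-A and glycine receptors, which are the ligand-gated chloride channels, 1 was higher and 1 lower on VN, and 3 were called on VNP2, all of them higher. These 3 were GLRA3 (log2 fold change on VNP2 0.91 ± 0.23, adjusted p = 0.0213), GABRB2 (0.70 ± 0.20, adjusted p = 0.0371) and GABRA2 (0.61 ± 0.14, adjusted p = 0.0137). VNP2 over VN gave 0 calls by edgeR in these subunits (4 at an unadjusted p under 0.05, and 1 by DESeq2). The subunit that was lower on VN was GLRB (-0.32 ± 0.08, adjusted p = 0.0245), which was not called on VNP2 (-0.25 ± 0.08, adjusted p = 0.0668). Of 8 tested anion exchangers, SLC4A8, a sodium-driven exchanger of chloride and bicarbonate, was higher on VN (0.40 ± 0.05, adjusted p = 0.000602) and VNP2 (0.27 ± 0.05, adjusted p = 0.00602), and SLC26A9 was lower on both (-1.33 ± 0.22 and -1.75 ± 0.23, adjusted p = 0.00315 and 0.000452).

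The WNK kinases with SPAK (STK39) and OSR1 (OXSR1) phosphorylate these cotransporters, which activates the NKCC and inhibits the KCC proteins. Of the 13 genes of this group, all tested, 2 were higher and 2 lower on VN, 2 were higher and 3 lower on VNP2, whereas VNP2 against VN gave 0 calls by edgeR (2 at an unadjusted p under 0.05, and 2 by DESeq2). WNK4 had 122 and 121.5 normalized read-counts on Matrigel, 26.7, 33.0 and 47.1 on VN, then 36.0, 44.8 and 47.2 on VNP2 (log2 fold change -1.81 ± 0.23 and -1.51 ± 0.23, adjusted p = 0.000569 and 0.00111). SGK1, a kinase that acts on ion transport downstream of steroid and growth factor signals, had 790 and 939 on Matrigel, 395, 417 and 327 on VN, then 265, 292 and 305 on VNP2 (-1.19 ± 0.11 and -1.59 ± 0.12, adjusted p = 7.4e-05 and 7.1e-06). In both genes the Matrigel libraries were far above all others. WNK2 was higher on VN and VNP2 (0.34 ± 0.09 and 0.34 ± 0.09, adjusted p = 0.0276 and 0.0269), as was WNK3 (0.24 ± 0.07 and 0.23 ± 0.07, adjusted p = 0.0324 and 0.0392). OXSR1 was lower on VNP2 (-0.21 ± 0.04, adjusted p = 0.00454). WNK1, the most abundant of the WNK genes per length (128 TPM), and STK39 were not called, with log2 fold changes on VNP2 of 0.10 ± 0.05 and 0.05 ± 0.05 (adjusted p = 0.192 and 0.577).

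The genes whose log2 CPM followed that of SLC12A1 most closely over the 8 libraries, among 12995 genes with a mean of at least 100 normalized read-counts, were RSPH1, RFX4, PDE4B, CTDSP1 and TCTEX1D1 (Pearson r from 0.972 to 0.979). RSPH1 is a component of motile cilia and RFX4 a transcription factor of the neural tube, and their means in the order Matrigel, VN, VNP2 were 297.5, 279 and 391 for RSPH1 and 3026, 2984 and 3510 for RFX4. The closest genes to ANO1 were TMEM132C, ID3, PNMA6A, LAMA2 and SLC8A3 (r from 0.989 to 0.995). ID3, an inhibitor of differentiation induced by BMP signals, had means of 2868, 2922 and 4256, LAMA2, a laminin chain, 424, 438 and 668, and SLC8A3, a sodium-calcium exchanger, 318, 310 and 545. These correlations are a description over libraries that share their coating, and the 5 genes were picked for the highest values.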

How the data were processed

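Per the labels and the methods of the study, the authors trimmed the reads with Trim Galore and ran Salmon on GENCODE v32 transcripts (GRCh38.p13). The deposited estimated counts and TPM are Salmon's values per transcript, not normalized between libraries, and the deposited normalized counts (a signal per gene, from DESeq2 1.27.12 after tximport) are the authors' own. Here, 205225 of 226608 transcripts were assigned to GENCODE v29 genes by identifier, which covers 98.79 to 98.88% of the counts. Single genes could fall further below the authors' normalized counts. Among the markers, the mean over all libraries was 0.787 times theirs for PTPRZ1, 0.640 times for OTX2 and 0.854 times for ELAVL4. The counts of each gene were summed, rounded and fitted in edgeR 4.0.16 (R 4.3.3) with length offsets, TMM factors from all genes, filterByExpr (minimum count 10, total 15) and all 8 libraries without a block. Quasi-likelihood tests were two-sided, with Benjamini-Hochberg adjustment over 18201 genes and a threshold of 0.05. Normalized read-counts are counts divided by library size and length offset, standard errors come from the F statistic and are approximate, and TPM were summed per gene. Ratios and transcript shares were tested by exact permutation over libraries (shares for genes with at least 0.5 TPM in every library), with Python 3.11.15 and pandas 2.3.3. A count of 100 has a sampling error of about 10%. In simulated data of 17965 genes for VNP2 against Matrigel, 96 of 100 changes of 2-fold and 87 of 100 of 1.5-fold were recovered. The simulation gave every gene the same dispersion (0.0037) and left out changes in genes with the fewest counts. SLC12A1 on VNP2 varied more (mean 246.5, SD 85.1), and the recovery of such genes was not simulated. Alternatives were RLE, DESeq2 1.42.0, no length offsets, factors from the tested genes (added after the data were seen), a block for replicate number, other filters (1 count in total, or 50 per library), a fit of the pair alone, limma 3.58.1 on the log2 of the authors' table (pseudocount 1 or 0.5), and leaving out each library. The genes and gene lists were chosen with earlier results of these data known. All 9 genes are given in every library. Some genes of the lists, and an alternative of the ratio that needs one, are not reported here. From the other lists, genes called at a mean of at least 50 were named, at most 4 per list by the largest change on VNP2, with WNK1, STK39 and OXSR1 in any case, and marker genes where they define a cell type. The lists were other cotransporters, CLC genes, anoctamins, volume and acid channels, bestrophins with CFTR, CLCA and tweety, CLIC genes, receptors, exchangers, WNK regulators, and markers of progenitors, neurons, kidney tubule, mesenchyme, choroid plexus and pluripotent cells. The summed markers of the choroid plexus were 5289 to 5727 on Matrigel, 6083 to 6539 on VN and 6082 to 6418 on VNP2 (nearly all OTX2, with TTR at 34 counts in all), and those of pluripotent cells 5786 to 6149, 4584 to 4730 and 4324 to 4554 (the fall on VN came from LIN28A, with means of 4382 and 2972, and the fitted values of the other 4 were above 0 on VN and not called). On VNP2 over Matrigel 3 pluripotent markers were lower (LIN28A, POU5F1 and TDGF1) and 1 was higher (DPPA4), where 9.13% of all tested genes were lower and 7.44% higher. POU5F1 and TDGF1 were also lower on VNP2 than on VN (log2 fold change -1.56 ± 0.18 and -2.44 ± 0.31, adjusted p = 0.000767 and 0.00121). Their means in the order Matrigel, VN, VNP2 were 124.8, 153.5 and 51.9 for POU5F1 and 44.7, 86.0 and 16.1 for TDGF1. The part of this shift in the results was not tested.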

Additional observations from a re-analysis of the deposited data

How the results depend on the processing

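In the comparison of VN with Matrigel, 1 to 3 of the chloride genes were called when a single library was left out, in that of VNP2 with Matrigel 4 to 5, in that of VNP2 with VN 2 to 3, and across the 3 coatings 3 to 5. The lowest values (1 for VN against Matrigel and 3 across) came without Matrigel replicate 3, which leaves a lone Matrigel library that is assumed to vary like the others. For the ratio of SLC12A2 to SLC12A5, p was 0.162 to 0.629 when a library was left out and 0.146 with full-length transcripts only, where the mean on VNP2 lay below that on Matrigel. The replicate numbers do not pair the libraries by the labels. In their deviations from the group means, same-numbered libraries correlated with r of 0.024 to 0.311, and libraries of different numbers with r of -0.23 to 0.141. Such deviations sum to 0 within a coating, so that Matrigel replicates 2 and 3 gave 0.066 and -0.066 with VN replicate 2. Both ranges are therefore tied to each other by construction, and their contrast cannot decide whether the libraries were paired. With the replicate block, 3, 5, 2 and 5 genes were called for VN, VNP2, VNP2 against VN and across, against 3, 5, 3 and 5 without it, SLC12A4 on VNP2 over VN being lost (adjusted p = 0.0546), and it turned the sign of uncalled values to 0.062 (SLC12A1 on VN) and -0.024 (ANO1 on VN).

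Of 270 fold changes under settings that kept all libraries, 259 kept direction and call, 7 lost the call and 4 turned in sign. Of 216 with a library left out, 193 kept both, 13 lost the call and 10 turned in sign. None of the 14 that turned belonged to a called difference. Without length offsets ANO1 on VN gave -0.012 and CLCN2 on VNP2 over VN 0.009. With a library left out, the results that turned in sign lay between -0.242 and 0.182 for SLC12A1 on VN, -0.038 and 0.1 for SLC12A5 on VN, -0.036 and 0.059 for ANO1 on VN, -0.102 and 0.005 for SLC12A7 on VNP2, -0.005 and 0.108 for CLCN2 on VNP2, and -0.025 and 0.066 for SLC12A7 on VNP2 over VN. The cause of these changes was not tested. The scaling factors were first taken from the tested genes and then from all genes, a choice made after the values of the first had been seen. With the factors from the tested genes all calls of the 9 genes held, SLC12A4 on VNP2 over VN at an adjusted p of 0.0491. The number of calls over all genes, from which the background shares come, fell by more than 1.5 times without either Matrigel library (1188 to 1226 for VN, 1609 to 1637 for VNP2 and 1879 to 1910 across). SLC12A1 on Matrigel and VN rests on 65 to 86 estimated counts per library, which leaves a wide standard error.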
